A study of Homo sapiens with 4 samples.

Results

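Acetylcholine receptors come in a pair of families. Nicotinic receptors are pentameric ion channels built from alpha, beta, gamma, delta and epsilon subunits, and muscarinic receptors are G-protein-coupled receptors. Skeletal muscle uses a nicotinic channel of alpha1, beta1 and delta with either the fetal gamma or the adult epsilon subunit, which opens when motor nerves release acetylcholine. Neurons and many epithelia use other combinations, such as channels of alpha3 and beta4 that may take up alpha5 as an accessory subunit. The muscarinic M3 receptor couples to Gq, which activates phospholipase C beta and releases calcium from internal stores, and it is known from the smooth muscle and glands of the urinary tract and prostate.

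The genes followed here were 10 acetylcholine receptor genes. They were the muscle subunits CHRNA1, CHRNB1, CHRND, CHRNE and CHRNG, the subunits CHRNA3, CHRNA5 and CHRNB4, the cochlear and epithelial subunit CHRNA9, and CHRM3, the gene of the M3 receptor. Each was taken as the probe set that the platform annotation gives to that gene symbol alone, the brightest over all arrays where a gene has several. All 10 were measured, each by exactly 1 such probe set, among 18417 genes in all. The family was chosen on the difference of CHRNA1 between the lines, already known from these arrays, so CHRNA1 is described by its values and is not tested. The other members were also chosen with earlier results of these data known. The probe sets were picked by symbol and mean brightness.

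Expression was compared between PC-3, the parental prostate cancer line, itself derived from a bone metastasis and labelled as poorly metastatic, and PC-3-BM, its derivative labelled as highly metastatic. According to the study's methods PC-3-BM is a clone, recovered from bone lesions of nude mice after repeated intracardiac injection, and both lines carry firefly luciferase and green fluorescent protein. The labels of all 4 samples speak of growth in immunocompromised mice and of isolation from bone, whereas the methods have the lines in culture, which leaves unsettled how the cells were kept before RNA was taken. Each line had 2 arrays. Nothing ties them to separate cultures, and a p-value here therefore reflects array-to-array spread that could be technical.

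The values are robust multichip average (RMA) expression on the log2 scale, in which 1 unit is a 2-fold difference. Their medians ran from 6.66 to 6.72 over the 4 arrays, and arrays of the same line correlated at 0.996 to 0.997 across probe sets against 0.983 to 0.985 between lines. RMA gives no detection call. As a guide to dimness, 338 protein-coding olfactory receptor genes, most of which are not expected to be used by a prostate line, had a median of 4.54 and a 95th percentile of 6.07 on the PC-3 arrays, and of 4.54 and 6.12 on the PC-3-BM arrays. Probe sets differ in brightness, so the levels of different genes are not compared with each other. A bulk sample also cannot tell fewer expressing cells from less RNA per cell. Among the prostate epithelium markers, 4 of the 6 measured had a mean above the olfactory 95th percentile in PC-3 and 3 in PC-3-BM. KRT18 and HOXB13 were far above the olfactory range in both lines, at 10.77 and 10.35 in PC-3. KLK3, the gene of prostate-specific antigen, chosen after its values were seen, lay within it at 5.79 and 5.86.

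Short stretches of promoter are shown for the muscle receptor subunits, because these genes are known to share a class of control element, the E-box, while of the 5 only CHRNA1 differed by more than 1 log2 unit between the lines. An E-box has the letters CANNTG, and myogenic factors such as MyoD are known to favour CAGCTG and also CAGGTG. The sequences were taken from RefSeq (GRCh38.p14), which had a promoter for 8 of the 10 genes, CHRNG and CHRNA5 not being among them. Each line gives the E-box of those letters nearest upstream of the gene start with its surroundings, 30 bases in all, 5′ to 3′ on the strand of the gene, with capitals for CAGCTG and for CAGGTG on either strand, which reads CACCTG on the other.
CHRNA1, chr2:174764520-174764549, minus strand: ccCAGCTGtcgctcccacaaaCAGGTGgtg
CHRNB1, chr17:7445016-7445045, plus strand: ctggcggctgtcctccagcaaCAGGTGcac
CHRND, chr2:232526112-232526141, plus strand: gttgaccccctcctcccccaaCACCTGtcc
CHRNE, chr17:4903201-4903230, minus strand: tggaagcagccaaaatgtcccCAGCTGcag
In CHRNA1 these letters stood as a close pair, starting at positions -75 and -56 from the gene start. CHRNE also had CAGCTG at -142 and -111, of which only the latter lies in the stretch shown. Across the promoters searched, from 250 bases before to 50 bases after the start, any CANNTG was found in 8 of 8 receptor promoters and in 68.9% of all 27305 promoters. CAGGTG or CACCTG was found in 7 of the 8 and in 20.6% of all, and CAGCTG in 3 of the 8 and in 17.7% of all. CAGCTG together with CAGGTG or CACCTG was found in CHRNA1, CHRNE and CHRNB4 and in 4.02% of all promoters. CAGCTG reads the same on both strands, CAGGTG and CACCTG are each other's reverse complement, and all are contained in CANNTG. A match is a description of letters and not a binding site.

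CHRNA1, which encodes the acetylcholine-binding alpha subunit of the muscle receptor, was far higher in PC-3-BM. Its values were 5.37 and 6.05 on the PC-3 arrays and 9.73 and 9.81 on the PC-3-BM arrays. Both PC-3-BM arrays lay above both PC-3 arrays by more than 3 log2 units, and the PC-3 arrays were the more scattered pair. The means were 5.71 ± 0.48 in PC-3 and 9.77 ± 0.06 in PC-3-BM (SD, n = 2), a difference of 4.06 (SE 0.23) or 16.6-fold. In PC-3 the mean lay among the olfactory receptor genes, above 88.2% of them and below their 95th percentile, so its PC-3 level is not shown to be above background and the size of the fold is uncertain. In PC-3-BM it lay above all of them. Without PC-3 array 1 the difference was 3.72 and without PC-3 array 2 it was 4.40. These values chose the family and carry no test.

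The partners of CHRNA1 in the muscle receptor did not differ past the threshold, an adjusted p below 0.05 in limma with Benjamini-Hochberg adjustment over all 33297 probe sets. CHRNB1, the beta1 subunit, was at 6.59 and 6.51 in PC-3 and at 6.47 and 6.47 in PC-3-BM. Its difference was -0.08 (SE 0.07, 95% interval -0.26 to 0.11, limma, adjusted p = 0.491). The PC-3-BM arrays were just below the PC-3 arrays and all were above the olfactory 95th percentile.

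CHRND, the delta subunit, was at 6.11 and 5.99 in PC-3 and at 5.87 and 6.03 in PC-3-BM. The arrays of the lines overlapped, and the difference was -0.10 (SE 0.09, 95% interval -0.34 to 0.14, limma, adjusted p = 0.492). CHRND lies beside CHRNG on chromosome 2, the chromosome that also carries CHRNA1.

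CHRNE, the adult epsilon subunit, was at 5.78 and 5.67 in PC-3 and at 5.74 and 5.61 in PC-3-BM, and the arrays of the lines overlapped. The difference was -0.05 (SE 0.09, 95% interval -0.27 to 0.17, limma, adjusted p = 0.72). CHRND and CHRNE had means within the olfactory receptor range in both lines. In the RefSeq gene table CHRNE overlaps C17orf107 and MINK1.

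CHRNG, the fetal gamma subunit, was at 7.30 and 7.21 in PC-3 and at 7.20 and 7.16 in PC-3-BM. All of its arrays were brighter than the olfactory 95th percentile, and the PC-3-BM arrays were only slightly lower. The difference was -0.07 (SE 0.07, 95% interval -0.26 to 0.12, limma, adjusted p = 0.551). CHRNG overlaps TIGD1 in the RefSeq gene table. For CHRND and CHRNE, which are not shown to be above background, the intervals describe the probe sets and set no bound on the transcripts.

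**Figure D1:**
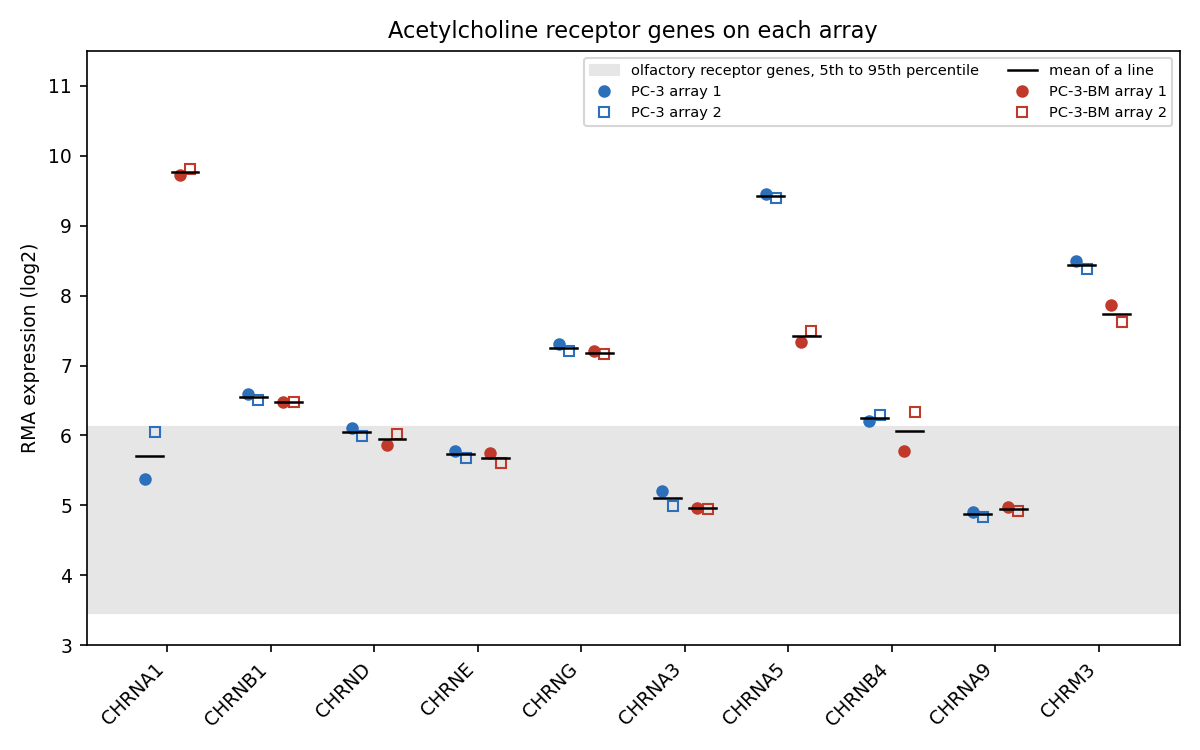
RMA expression (log2, vertical axis) of the 10 receptor genes on the 2 PC-3 arrays (blue) and the 2 PC-3-BM arrays (red), with filled circles for array 1, open squares for array 2, black bars for the mean of each line and a grey band for the 5th to 95th percentile of olfactory receptor genes. CHRNA1 left the band, from a mean of 5.71 in PC-3 to 9.77 in PC-3-BM, while CHRNA5 went from 9.42 to 7.42 and CHRM3 from 8.44 to 7.74.

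CHRNA5 fell in PC-3-BM. It encodes the alpha5 accessory subunit, which does not form a channel alone and is known to change the calcium permeability and desensitisation of the channels it joins. Its values were 9.45 and 9.39 on the PC-3 arrays and 7.33 and 7.50 on the PC-3-BM arrays, so both PC-3-BM arrays lay well below both PC-3 arrays. The means were 9.42 ± 0.05 and 7.42 ± 0.12 (SD, n = 2), and CHRNA5 fell by 2.01 (SE 0.09, limma, adjusted p = 0.00126). This is a 4.01-fold lower level, with a 95% interval from 3.43 to 4.69. In both lines CHRNA5 stayed above the olfactory 95th percentile, and by size of fall it ranked 30 of 18417 genes. With any 1 array left out the difference ran from -2.09 to -1.92 and the adjusted p in limma from 0.0151 to 0.0293. The call was lost with unmoderated variances (adjusted p = 0.0677).

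The subunits that lie next to CHRNA5 on chromosome 15 did not pass the threshold. CHRNA3, the alpha3 subunit of ganglionic receptors, was at 5.20 and 4.998 in PC-3 and at 4.97 and 4.95 in PC-3-BM. Its PC-3-BM arrays were the lower pair, by less than the gap between the PC-3 arrays, and the difference was -0.14 (SE 0.09, 95% interval -0.38 to 0.10, limma, adjusted p = 0.348). CHRNA3 was dim, with means above 74.6% and 71.3% of the olfactory receptor genes. CHRNA3 and CHRNA5 overlap in the RefSeq gene table.

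CHRNB4, the beta4 partner of alpha3, was at 6.21 and 6.29 in PC-3 and at 5.78 and 6.34 in PC-3-BM. The arrays of the lines overlapped and the PC-3-BM arrays bracketed the PC-3 arrays. The difference was -0.19 (SE 0.19, 95% interval -0.70 to 0.31, limma, adjusted p = 0.533). It was 0.09 without PC-3-BM array 1 and -0.47 without PC-3-BM array 2. The mean of CHRNB4 was above the olfactory 95th percentile in PC-3, at 6.25, and below it in PC-3-BM, at 6.06. The interval of CHRNA5, from -2.23 to -1.78, lay below those of CHRNA3 and CHRNB4, although the difference between these genes was not tested. CHRNA3 in both lines and CHRNB4 in PC-3-BM are not shown to be above background. Their intervals therefore describe the probe sets and set no bound on the transcripts.

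CHRNA9, the subunit of a channel known from cochlear hair cells and skin, was at 4.91 and 4.84 in PC-3 and at 4.98 and 4.92 in PC-3-BM. These values lay in the olfactory receptor range, and the difference was 0.08 (SE 0.07, 95% interval -0.11 to 0.26, limma, adjusted p = 0.514).

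CHRM3, the gene of the Gq-coupled M3 receptor, fell in PC-3-BM. Its values were 8.49 and 8.38 in PC-3 and 7.86 and 7.63 in PC-3-BM, with no overlap between the lines. The means were 8.44 ± 0.08 and 7.74 ± 0.16 (SD, n = 2), and CHRM3 fell by 0.70 (SE 0.11, limma, adjusted p = 0.0127), a 1.62-fold lower level with a 95% interval from 1.34 to 1.96. It was above the olfactory 95th percentile in both lines. The call was lost without PC-3 array 1 (difference -0.64, limma, adjusted p = 0.0817) and without PC-3 array 2 (difference -0.75, limma, adjusted p = 0.0671), and also with unmoderated variances (adjusted p = 0.143).

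Of all genes 29.6% were called, 14.8% lower and 14.8% higher, and of all probe sets 23.2%, 11.6% lower and 11.6% higher. Of the 9 receptor genes other than CHRNA1, 2 fell, 0 rose and 7 did not pass the threshold, so that 22.2% were called. Only 1 remained without PC-3 array 1 or without PC-3 array 2. Their median difference was -0.10, beside -0.04 over all genes. The arrays of the lines did not overlap for 6 of the 9, against 70.6% of all genes. The share of receptor genes called in either direction was thus no higher than the background. CHRNA5 stood out by size rather than by the count. The genes were chosen with earlier results of these data known, so the share could come from the choice.

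The rest of the receptor family gave no call, but the members followed here had been chosen with earlier results of these data known. A contrast between them and the rest could therefore come from the choice. A list of the other 11 nicotinic and muscarinic receptor genes had 10 measured by a probe set of their own, CHRNA4 being the exception, and 0 passed in limma, with the moderated variances, in limma-trend and with unmoderated variances alike. With moderated variances the smallest unadjusted p in limma was 0.0549, for CHRNB3, which was chosen after its values were seen. Their differences ran from -0.26 for CHRNB3 to 0.17 for CHRM4, with a median of -0.08. The brightest of them were CHRNB2, at 7.14 and 7.17 in PC-3 and 7.18 and 6.96 in PC-3-BM (difference -0.09, SE 0.10, limma, adjusted p = 0.563), and CHRM4 (difference 0.17, SE 0.11, limma, adjusted p = 0.314). CHRNA7, the homomeric alpha7 subunit, chosen after its values were seen, was at 6.04 ± 0.01 and 6.08 ± 0.03 (SD, n = 2). A further probe set is annotated to CHRNA7 together with its partial duplicate CHRFAM7A and was not used.

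**Figure D2:**
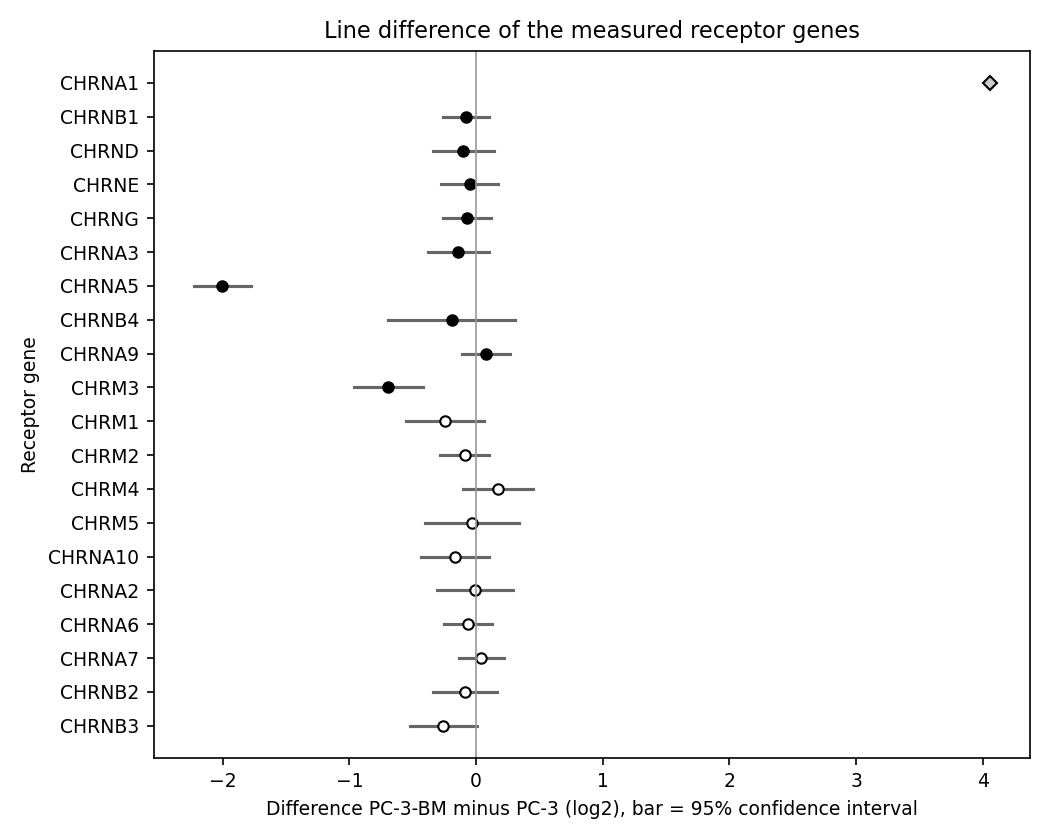
Difference PC-3-BM minus PC-3 (log2, horizontal axis) with its 95% confidence interval (bars) for the receptor genes followed here (filled circles) and the other 10 measured receptor genes (open circles), and without an interval for CHRNA1 (diamond), which is not tested. CHRNA1 is at 4.06, CHRNA5 at -2.01 and CHRM3 at -0.70, and of the intervals drawn all but those of CHRNA5 and CHRM3 include 0.

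The genes around CHRNA1 on chromosome 2 were more often higher than lower in PC-3-BM, by far less than CHRNA1 itself. Of the 5 nearest measured protein-coding genes on each side, 5 of 10 rose and 0 fell, with a median difference of 0.29, where 14.8% of all genes were called higher. LNPK, which shapes endoplasmic reticulum junctions, rose by 0.88 (SE 0.10), CIRSR by 0.78 (SE 0.13), the transcription factor ATF2 by 0.71 (SE 0.08) and GPR155 by 0.51 (SE 0.07), with limma adjusted p from 0.00544 to 0.0161. WIPF1 and CHN1, the immediate neighbours, were chosen after their values were seen. WIPF1 differed by 0.20 (SE 0.08, limma, adjusted p = 0.145) and CHN1 rose by 0.38 (SE 0.07, limma, adjusted p = 0.0206).

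Around CHRNA5, CHRNA3 and CHRNB4 on chromosome 15, 2 of the 10 nearest measured genes fell and 0 rose, where 14.8% of all genes were called lower. The cathepsin CTSH fell by 0.75 (SE 0.08, limma, adjusted p = 0.00573) and HYKK, encoding hydroxylysine kinase, fell by 0.65 (SE 0.07, limma, adjusted p = 0.00597). PSMA4, a proteasome subunit that lies between HYKK and CHRNA5 in this order and was chosen after its values were seen, differed by -0.18 (SE 0.08, limma, adjusted p = 0.178). Over both neighbourhoods together 7 of 20 genes were called, where 29.6% of all genes were called in either direction. With any 1 array left out fewer of the 20 were called, and fewer were called higher.

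**Figure D3:**
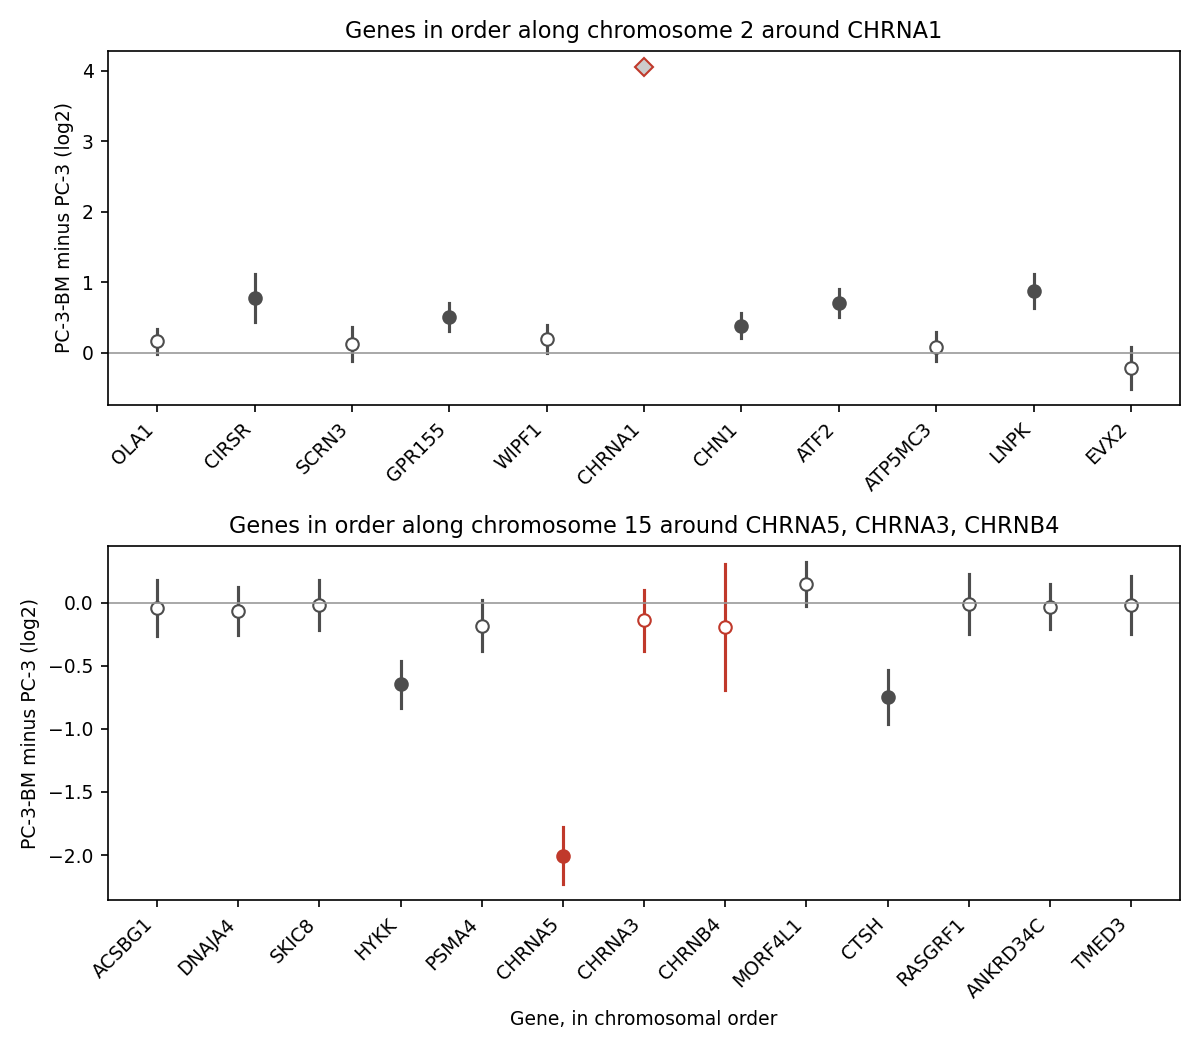
Difference PC-3-BM minus PC-3 (log2, vertical axis) with its 95% confidence interval for the receptor genes (red) and the 5 nearest measured protein-coding genes on each side (grey) in chromosomal order (horizontal axis), with circles filled at an adjusted p below 0.05 and a diamond without an interval for CHRNA1, which is not tested. CHRNA1, at 4.06, stands above neighbours between -0.21 and 0.88, and CHRNA5, at -2.01, below neighbours between -0.75 and 0.15.

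Of 19 skeletal muscle markers 1 rose and 1 fell, or 10.5%, beside 29.6% of all genes called, with a median difference of -0.12. Many of these markers were dim. With only probe sets above a mean of 6 in the fit, 3 of 9 markers were called, beside 8813 of 20148 probe sets. With only probe sets of 1 symbol in the fit, 5 of the 19 were called, of which 1 rose and 4 fell. In that fit 7743 of all 19460 probe sets were called. The marker that rose was TTN, the gene of the giant sarcomere protein titin. TTN rose from 6.02 ± 0.02 to 7.83 ± 0.04 (SD, n = 2, difference 1.81, SE 0.07, limma, adjusted p = 0.001), and the slow troponin TNNT1 fell by 0.42 (SE 0.07, limma, adjusted p = 0.0182). With any 1 array left out, 1 marker was called. The myogenic factors, named for their role after their values were seen, differed by -0.09 for MYOD1 (SE 0.10, limma, adjusted p = 0.583), -0.11 for MYOG (SE 0.08, limma, adjusted p = 0.378), 0.11 for MYF5 (SE 0.08, limma, adjusted p = 0.406) and -0.14 for MYF6 (SE 0.11, limma, adjusted p = 0.426). MYOD1, MYF5 and MYF6 lay in the olfactory range in both lines, and MYOG above it, at 7.03 and 6.92. The unlogged values summed over the list were 2094 and 2079 on the PC-3 arrays and 1884 and 2009 on the PC-3-BM arrays. Without TNNT1 they were 1413 and 1356 in PC-3 and 1371 and 1476 in PC-3-BM, so that the arrays of the lines overlapped.

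Markers of blood and stroma were mixed. A harvest from bone could carry cells of the mouse host, whereas these probe sets were made for human genes. The values therefore cannot tell how much host tissue was present, whichever way they go. Of 9 such markers 2 rose and 0 fell, or 22.2%, beside 29.6% of all genes called, and with any 1 array left out 1 of the list was called. With only probe sets of 1 symbol in the fit, 3 rose and 2 fell, beside 7743 of all 19460 probe sets called in that fit. The collagen gene COL1A1 rose by 0.68 (SE 0.07) and the endothelial PECAM1 by 0.45 (SE 0.07). A second PECAM1 probe set rose more, from 4.34 in PC-3 to 6.21 in PC-3-BM (difference 1.87, SE 0.17, limma, adjusted p = 0.00412). The other 7 markers are named here after their values were seen. The endothelial VWF differed by -0.24 (SE 0.08, limma, adjusted p = 0.0882), with no overlap between the lines, the bone enzyme gene ALPL by -0.25 (SE 0.07, limma, adjusted p = 0.0742) and the pericyte gene PDGFRB by 0.01 (SE 0.08, limma, adjusted p = 0.935). The monocyte gene CD14 was at 6.36 in PC-3 and 6.30 in PC-3-BM, above the olfactory 95th percentile in both. The leukocyte gene PTPRC was at 3.75 and 3.99, the haemoglobin gene HBB at 5.02 and 4.88 and the T cell gene CD3E at 4.94 and 4.92, all in the olfactory range. Summed unlogged values of the list were 727 and 708 in PC-3 and 891 and 898 in PC-3-BM. Without COL1A1 they were 431 and 433 in PC-3 and 438 and 437 in PC-3-BM, and 5 of the 9 markers were lower in PC-3-BM by mean. The part of these markers in the difference of CHRNA1 was not tested. Of 10 neuroendocrine and neuronal markers 1 rose, beside 14.8% of all genes called higher. This was SYT1, the calcium sensor of vesicle release, which rose by 1.46 (SE 0.07, limma, adjusted p = 0.00147). The list sums were 1066 and 1096 in PC-3 and 1846 and 1873 in PC-3-BM. Without SYT1 they were 604 and 611 in PC-3 and 533 and 583 in PC-3-BM, and the median difference of the list was -0.11. SYP and CHGA, chosen after their values were seen, did not pass the threshold. Of 6 measured prostate epithelium markers 4 fell, where 14.8% of all genes were called lower, KRT8 by 2.03 (SE 0.10), EPCAM by 1.30 (SE 0.09), HOXB13 by 0.91 (SE 0.07) and KRT18 by 0.40 (SE 0.09). The second probe sets of EPCAM and KRT18 were lower as well, by differences of -1.98 and -0.58. The sums of this list were 5450 and 5127 in PC-3 and 2589 and 2731 in PC-3-BM, beside the lower CHRNA5 and CHRM3. Its part in those falls was not tested.

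Of 21 measured genes that organise receptors at the neuromuscular junction 5 rose and 1 fell, or 28.6%, near the 29.6% of all genes called, with a median difference of -0.05. With only probe sets of 1 symbol in the fit, 6 rose and 4 fell, beside 7743 of all 19460 probe sets called in that fit. ERBB4, a neuregulin receptor, rose from 6.05 and 5.90 to 7.29 and 7.55 (difference 1.44, SE 0.12, limma, adjusted p = 0.00327). SNTB1, a syntrophin adaptor of the dystrophin complex, rose by 1.27 (SE 0.07, limma, adjusted p = 0.00173), UTRN, the dystrophin homologue utrophin, by 0.73 (SE 0.07, limma, adjusted p = 0.00415) and the microtubule-actin linker MACF1 by 0.58 (SE 0.07, limma, adjusted p = 0.00676). The clustering pathway itself, named for its role after its values were seen, did not pass: AGRN differed by -0.11 (SE 0.07), its receptor LRP4 by -0.05 (SE 0.07), the kinase MUSK by 0.17 (SE 0.08), its adaptor DOK7 by -0.05 (SE 0.14) and the scaffold RAPSN by -0.16 (SE 0.09). Between 3 and 4 junction genes were called with 1 array left out.

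Genes of receptor assembly and of surface proteins that bind nicotinic receptors gave 1 gain and 3 falls among 15 measured, or 26.7%, beside 29.6% of all genes called, with a median of -0.09. LY6E, of the Ly6 family that includes receptor modulators, fell by 0.59 (SE 0.07, limma, adjusted p = 0.00781), UBXN2A, an adaptor known to act on alpha3 receptors, by 0.46 (SE 0.08, limma, adjusted p = 0.0154) and LYPD1, encoding a Ly6-type modulator, by 0.46 (SE 0.07, limma, adjusted p = 0.0138). The endoplasmic reticulum chaperone HSPA5 rose by 0.46 (SE 0.09, limma, adjusted p = 0.0238). The number of calls depended on single arrays, with 1, 0, 1 and 2 without PC-3 array 1, PC-3 array 2, PC-3-BM array 1 and PC-3-BM array 2. RIC3, a chaperone of alpha7 receptors chosen after its values were seen, was dim in both lines, at 4.04 and 3.93.

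Genes that make, move or break down acetylcholine gave 3 gains and 0 falls among 14 measured, or 21.4%, beside 29.6% of all genes called and 14.8% called higher, with a median of -0.05. With only probe sets of 1 symbol in the fit, 4 rose and 1 fell, beside 7743 of all 19460 probe sets called in that fit. The 3 genes that rose belong to the choline transporter-like family. SLC44A4 rose from 6.28 and 6.16 to 6.94 and 6.97 (difference 0.74, SE 0.08, limma, adjusted p = 0.00531), and its other 2 probe sets held the same values. SLC44A5 rose by 0.69 (SE 0.09, limma, adjusted p = 0.00882), from a PC-3 mean of 4.78 within the olfactory range, and SLC44A1 rose by 0.50 (SE 0.07, limma, adjusted p = 0.0096). The synthesising enzyme CHAT and the esterase ACHE were named for their role after their values were seen. CHAT was at 6.09 ± 0.23 and 5.82 ± 0.22 (SD, n = 2, difference -0.27, SE 0.16, limma, adjusted p = 0.304) and ACHE at 5.79 ± 0.04 and 5.61 ± 0.11 (SD, n = 2, difference -0.18, SE 0.08, limma, adjusted p = 0.213). With 1 array left out, 1 or 2 genes of this list were called.

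Downstream of CHRM3, the Gq and calcium list moved in both directions. Of 23 measured genes 5 rose and 7 fell, or 52.2%, with a median of -0.05, against 29.6% of all genes called. The background was higher among bright probe sets. With only probe sets above a mean of 6 in the fit, 12 of 20 genes of this list were called, beside 8813 of 20148 probe sets. The inositol trisphosphate receptor ITPR1 fell by 0.76 (SE 0.07, limma, adjusted p = 0.00442) and the calmodulin kinase subunit CAMK2G by 0.74 (SE 0.07, limma, adjusted p = 0.00487). The arrestin ARRB1, which desensitises G-protein-coupled receptors, rose by 0.91 (SE 0.07, limma, adjusted p = 0.0029) and the protein kinase C gene PRKCA by 0.82 (SE 0.09, limma, adjusted p = 0.00572). Members of the same family went opposite ways. ITPR2 and ITPR3, chosen after their values were seen, rose by 0.66 (SE 0.07, limma, adjusted p = 0.00518) and 0.36 (SE 0.07, limma, adjusted p = 0.0291) where ITPR1 fell. The genes of Gq-class alpha subunits and of phospholipase C beta were chosen in the same way. GNAQ, GNA11 and GNA14 differed by 0.22 (SE 0.17), -0.11 (SE 0.07) and 0.01 (SE 0.08) without passing, and GNA15 fell by 0.32 (SE 0.07, limma, adjusted p = 0.0369). PLCB1 fell by 0.58 (SE 0.09, limma, adjusted p = 0.012) and PLCB4 by 0.54 (SE 0.07, limma, adjusted p = 0.0078). PLCB2 and PLCB3 differed by -0.15 (SE 0.09) and 0.03 (SE 0.07) without passing. Between 5 and 7 genes of this list were called with 1 array left out.

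**Figure D4:**
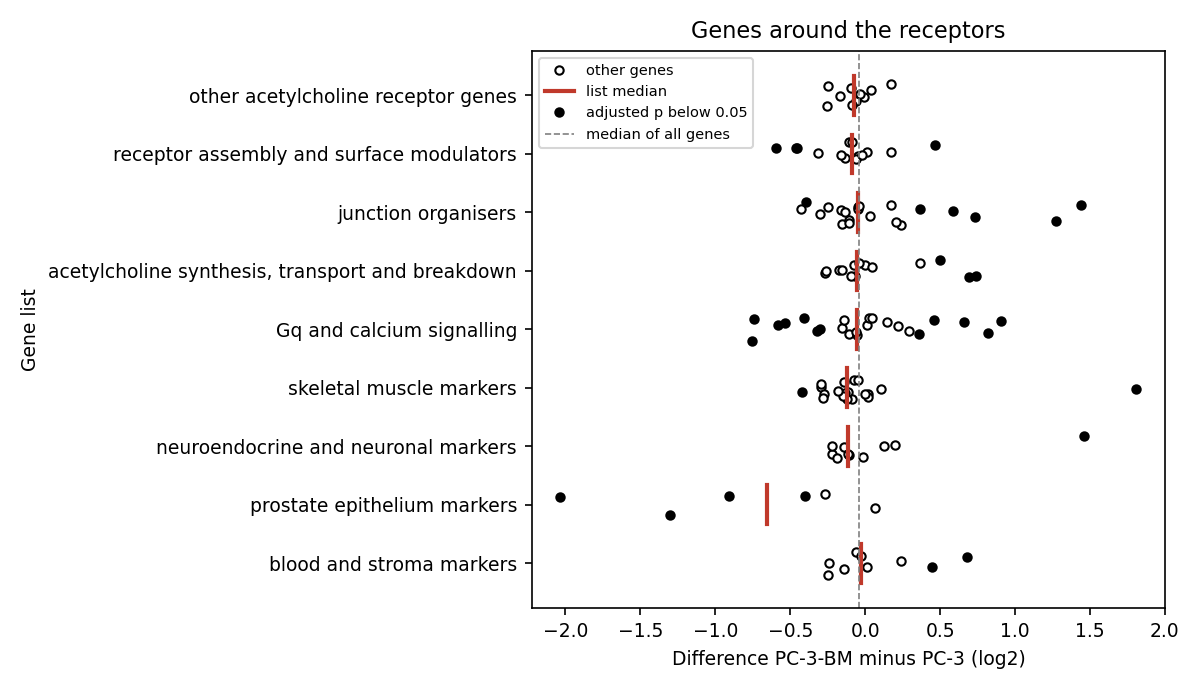
Difference PC-3-BM minus PC-3 (log2, horizontal axis) of each measured gene of 9 lists (vertical axis), filled at an adjusted p below 0.05, with red bars for list medians and a dashed line for the median of all genes at -0.04. The Gq and calcium list spreads to both sides, from -0.76 to 0.91, while among skeletal muscle markers TTN stands apart at 1.81.

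The genes whose profile over the 4 arrays was most like that of CHRNA1 were EPGN, ANGPT2, RGS9, CSAG1 and RGCC. Likeness was the Euclidean distance between values centred on each gene's mean, which was 0.58 log2 units for EPGN and 1.07 for RGCC, the nearest and the most distant of the 5. Their differences between the lines ran from 3.12 for RGCC to 4.67 for ANGPT2. This measure over 4 arrays mostly matches the size of the difference and is a description.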

How the data were processed

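Total RNA from 2 PC-3 and 2 PC-3-BM samples was hybridised to single-colour Affymetrix Human Gene 1.0 ST arrays. The authors read the images with Affymetrix software and deposited log2 expression values made with RMA, in which probe intensities are background-corrected, quantile-normalised over the 4 arrays and summarised per probe set. Tools named in the processing notes of the submitters were limma 3.24 and R 3.2, while the genome build is not given in the sources used here. A shift of all transcripts in 1 line would not be visible in such values.

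Of 33297 probe sets, 19460 had 1 gene symbol, 1754 several and 12083 none, and only the first were named, by the platform annotation, with 0 symbols changed after matching to RefSeq (GRCh38.p14). The values were used as deposited. PC-3-BM was compared with PC-3 in limma 3.58.1 under R 4.3.3, as a linear model on group means with empirical Bayes moderation (2.88 prior and 2 residual degrees of freedom), two-sided, with Benjamini-Hochberg adjustment over all probe sets and a threshold of 0.05. The procedure was tested on simulated data, 3 runs of these 33297 probe sets with 200 changed. It recovered 41% to 49% of changes of 1 log2 unit and 83% to 86.5% of changes of 2 log2 units, with 0 to 3 false calls a run. In the data 7717 probe sets were called, far more than the 200 changed in the simulation, which makes the adjustment less strict. The recovered shares and false calls of the simulation therefore do not carry over to the data. An exact two-sided permutation test of 2 against 2 arrays cannot go below 0.333. For arrays, their number limits the precision.

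The members and lists were chosen with earlier results of these data known. Named in the text are every member, up to 4 genes of each list or neighbourhood with the largest called differences, the 2 brightest where none was called, and the 5 profiles nearest to CHRNA1. Genes outside this rule are marked as chosen after their values were seen. Array centring, brightness filters, probe sets of 1 symbol, limma-trend, unmoderated variances, the replicate number as a block and leaving out each array were tried as alternatives.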

Additional observations from a re-analysis of the deposited data

How the results depend on the processing

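CHRNA5 and CHRM3 kept their calls with arrays centred on their medians, which raised every PC-3-BM minus PC-3 difference by 0.03, with probe sets above a mean of 5 or 6 or of 1 symbol only, with limma-trend and with the replicate block. With unmoderated variances, which leave 2 residual degrees of freedom, 13 probe sets, 0 receptor genes, 0 list genes and 0 neighbours passed, while 9307, 2, 44 and 9 had an unadjusted p below 0.05. The adjusted p was then 0.0677 for CHRNA5 and 0.143 for CHRM3. With 1 array left out, which leaves 1 array in a line that is assumed to vary like the other line, limma called 2238 to 3854 probe sets against 7717, 1 to 2 receptor genes against 2, 15 to 21 genes of the lists against 34 of 127, and 3 to 5 neighbours against 7. With only probe sets of 1 symbol in the fit, where 7743 of 19460 were called, counts rose from 6 to 10 for junction genes, 3 to 5 for acetylcholine handling, and 2 to 5 for both muscle and blood and stroma markers. Centring changed the split of all calls from 3854 higher and 3863 lower to 4212 and 3254. The number of receptor genes brighter than the olfactory 95th percentile in either line was 6, and 6 to 7 with 1 array left out.

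Arrays of the same replicate number did not deviate together (r = -0.02 between the deviations of the lines across probe sets), so the numbers were not taken as pairs. With the replicate block 6473 probe sets, 2 receptor genes, 31 list genes and 7 neighbours were called in limma. Averages over several probe sets of a receptor gene, and other probe sets of it, were not run because each had 1. Differences of uncalled genes changed sign without single arrays for CHRNE and CHRNB4, at 0.00 to 0.01 and 0.09.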
